A study of Mus musculus with 16 samples.

Results

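Cell cycle genes were described through the open chromatin around them. A fixed list of 53 genes was used, in 5 roles: 14 genes of DNA replication, 8 cyclins and kinases of the G1 and S phases, 7 transcription factors, 19 genes of mitosis and 5 inhibitors. A peak belonged to a gene when that gene's span was the nearest protein-coding mm10 RefSeq span to the middle of the peak, at most 50 kb away. By this rule 282 of the 82188 peaks in the count table belonged to 50 of the 53 genes, with a median of 3 peaks per gene. Cdc45, Kif11 and Cdkn1a had no peak within 50 kb in the table used here, so no value is given for them.

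The libraries were Omni-ATAC libraries, in which a transposase cuts accessible DNA, so the count in a peak measures how open that stretch was. They came from spleens of C57BL/6 mice aged 8 to 10 weeks, from cells labelled CC and CB, read here as centrocytes and centroblasts of the germinal centre. The 4 groups were Smarca4+/- CC (HET CC), Smarca4+/+ CC (WT CC), Smarca4+/- CB (HET CB) and Smarca4+/+ CB (WT CB), with 4 libraries each. Smarca4 encodes an ATPase of the BAF chromatin remodelling complex, and the HET mice carry 1 intact copy. The labels used here give no sorting gate and do not say that the libraries came from separate mice, so each p-value measures the spread between libraries, which may be technical.

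As background, the cell cycle runs from growth and the decision to divide, through copying of the DNA, to mitosis. E2F transcription factors drive the genes that prepare and carry out replication, while a complex of MuvB with B-Myb and FoxM1 drives the later mitotic genes. In the germinal centre, centroblasts divide in the dark zone, and centrocytes, selected for affinity in the light zone, divide little until they return.

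The count tables differed in depth between the cell types. HET CC libraries held 5310327 to 7474760 counts, WT CC libraries 3494356 to 3750936, HET CB libraries 38716281 to 51011923 and WT CB libraries 31696941 to 38798802. The median peak had 35 to 50 counts in HET CC, 22 to 24 in WT CC, 263 to 347 in HET CB and 215 to 267 in WT CB libraries. Pearson correlations of peaks between libraries of 1 group were 0.920 to 0.944 in HET CC, 0.895 to 0.901 in WT CC, 0.991 to 0.994 in HET CB and 0.988 to 0.992 in WT CB. The depth moved with the cell type in both genotypes, and the comparisons were therefore also made with every library thinned to the smallest. Levels below are CPM, counts scaled to the size of each library. They are set side by side between groups for 1 gene or peak, not between genes, because genes hold different numbers of peaks.

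Of the 282 peaks, 75 were gene-end peaks, with the middle within 1 kb of either end of the gene. That was 26.6% of the peaks of cell cycle genes, against 23.2% of all assigned peaks. Of the other 207 peaks, 108 lay inside the gene span and 99 outside it. Among 61 gene-end peaks of genes whose start is known from the RefSeq promoter table, 59 lay within 1 kb of a start, so nearly all of them mark promoters. A total of 7 gene-end peaks also lay within 1 kb of the end of another protein-coding gene (2 of Mcm4, 2 of Mcm7 and 1 each of Pcna, Foxm1 and Aurka), and their counts cannot be assigned to 1 of the 2 genes. Nearest to the 1 kb limit, a peak of Bub1b at 997 bp counted as a gene-end peak and a peak of Cdc6 at 1039 bp did not. The most distant peak lay 43982 bp from its gene, Cenpe.

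The promoters of the genes on which the results turn are shown first, because most gene-end peaks lie on them. Each is the 250 bases before the gene start, 5′ to 3′ on the strand of the gene, from RefSeq with mouse build GRCm38.p6. Capitals mark 3 motifs searched on both strands: E2F sites (TTTCCCGC, TTTCGCGC, TTTGCCGC or TTTGGCGC), the cell cycle genes homology region, or CHR (TTTGAA or TTCGAA), and the CCAAT box. Mcm5, a subunit of the replicative helicase, lies on the plus strand and the window is chr8:75109259-75109508. Overlapping E2F sites merge into 1 run of capitals there.
Mcm5: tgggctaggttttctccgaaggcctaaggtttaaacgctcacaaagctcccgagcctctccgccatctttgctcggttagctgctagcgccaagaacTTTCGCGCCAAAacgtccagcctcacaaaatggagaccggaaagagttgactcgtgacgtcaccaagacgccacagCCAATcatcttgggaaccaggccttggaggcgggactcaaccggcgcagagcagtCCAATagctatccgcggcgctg
Cdk1, the kinase that drives entry into mitosis, lies on the minus strand and the window is chr10:69352913-69353162.
Cdk1: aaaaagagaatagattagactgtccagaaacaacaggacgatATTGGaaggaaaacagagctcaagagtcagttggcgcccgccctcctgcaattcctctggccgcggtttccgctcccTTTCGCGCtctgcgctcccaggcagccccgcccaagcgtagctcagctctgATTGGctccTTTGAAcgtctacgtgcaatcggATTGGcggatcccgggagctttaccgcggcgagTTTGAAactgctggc
Cdc20, an activator of the anaphase-promoting complex, lies on the minus strand and the window is chr4:118437344-118437593.
Cdc20: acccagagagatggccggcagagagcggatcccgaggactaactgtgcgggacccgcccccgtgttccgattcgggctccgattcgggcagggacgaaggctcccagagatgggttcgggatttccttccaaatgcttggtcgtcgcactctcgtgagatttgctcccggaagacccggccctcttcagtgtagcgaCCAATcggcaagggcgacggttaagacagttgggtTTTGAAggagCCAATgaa
Ccnb2, a B-type cyclin of mitosis, lies on the minus strand and the window is chr9:70421555-70421804.
Ccnb2: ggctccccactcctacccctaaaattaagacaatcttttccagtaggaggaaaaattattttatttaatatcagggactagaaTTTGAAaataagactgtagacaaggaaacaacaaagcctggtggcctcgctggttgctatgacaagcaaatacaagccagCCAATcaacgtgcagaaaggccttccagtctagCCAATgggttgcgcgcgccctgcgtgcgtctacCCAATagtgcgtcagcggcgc
Plk1, a kinase of mitotic entry and spindle assembly, lies on the plus strand and the window is chr7:122159185-122159434.
Plk1: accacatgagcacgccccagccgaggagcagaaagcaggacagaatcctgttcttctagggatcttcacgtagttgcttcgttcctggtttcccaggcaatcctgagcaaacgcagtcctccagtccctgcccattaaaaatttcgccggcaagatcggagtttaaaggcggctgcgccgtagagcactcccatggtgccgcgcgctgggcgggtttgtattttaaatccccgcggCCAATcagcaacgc
Cdkn1b, which encodes the CDK inhibitor p27, lies on the plus strand and the window is chr6:134920151-134920400.
Cdkn1b: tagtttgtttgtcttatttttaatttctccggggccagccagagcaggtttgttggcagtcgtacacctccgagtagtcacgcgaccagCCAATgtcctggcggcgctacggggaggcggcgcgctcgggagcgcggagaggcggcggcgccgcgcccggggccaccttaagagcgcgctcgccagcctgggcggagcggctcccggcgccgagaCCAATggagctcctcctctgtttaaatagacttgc

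The promoter table held 49 windows for 43 of the 53 genes, each running from 250 bases before to 50 bases after a start. Mcm4, Ccne2, Ccna2, Ccnd2, Foxm1, Aurkb, Kif20a, Tpx2, Rb1 and Wee1 had no entry. The E2F letters stood in 12 of 49 windows (24.5%), against 2.26% of 32851 windows of all genes. They stood in 7 of 14 windows of replication genes (50%) and in 1 of 16 windows of mitosis genes (6.25%), the window of Cdk1. The CHR letters stood in 3 of 14 replication windows (21.4%) and 13 of 16 mitosis windows (81.2%), against 19.2% of all windows. Each of those 13 mitosis windows also held a CCAAT box, and CHR and CCAAT letters occurred together in 7.52% of all windows. The windows of Plk1 and Ccnb2 also held CHR letters after the start, at positions 31 and 5, outside the printed bases. The inhibitors had neither E2F nor CHR letters in 5 windows. A match describes the letters and does not show a bound factor.

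In the first comparison CC were set against CB within each genotype, which asks how open the cell cycle genes were in centrocytes relative to centroblasts. The loci moved in both directions. Summed over all peaks of a gene, HET CC had 12 of 50 genes higher and 22 lower than HET CB, against 33.6% higher and 28.8% lower of all 15054 genes with a peak (edgeR quasi-likelihood test, adjusted p below 0.05 over all genes). WT CC had 14 higher and 18 lower than WT CB, against 36.2% and 27% of all genes. The median log2 fold change was -0.05 in HET and -0.08 in WT, against 0.03 and 0.05 over all genes. The WT split depends on scaling: with total counts 11 rose and 25 fell, and with TMM factors from gene-end peaks or from the gene sums 10 rose and 25 fell. All genes moved as well, from 5447 higher and 4060 lower to 4948 and 4586 with total counts. The numbers were 4783 and 4731 with gene-end TMM, and 4759 and 4773 with gene-sum TMM. With every library thinned to the smallest total, 10 rose and 17 fell in HET and 14 rose and 12 fell in WT. No share of all genes is given here for the thinned counts.

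The HET and WT comparisons share no library. In both, 11 genes rose (Mcm3, Mcm4, Mcm5, Ccne1, Ccnd2, Ccna2, Cdk4, Aurka, Birc5, Kif20a and Cdkn1b) and 17 fell (Rrm2, Tyms, Ccne2, Ccnd3, Cdk2, Cdk6, E2f1, E2f7, Foxm1, Mybl2, Ccnb2, Plk1, Bub1, Cdc20, Cdc25b, Tpx2 and Cdkn2c). No gene rose in 1 genotype and fell in the other. No share of all genes called in both genotypes, or in opposite directions, is given here. The agreement was therefore not judged against all genes. Cdc6, Pcna and Rb1 rose and Aurkb fell in WT alone by the threshold, while Mki67 rose and Mcm6, Orc1, Ccnb1, Cenpf and Ube2c fell in HET alone by the threshold, and the test of the difference called none of them. Mcm2, Mcm7, Cdt1, Rrm1, E2f2, E2f3, E2f8, Cdk1, Bub1b, Cenpe, Top2a and Wee1 passed in neither.

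**Figure D1:**
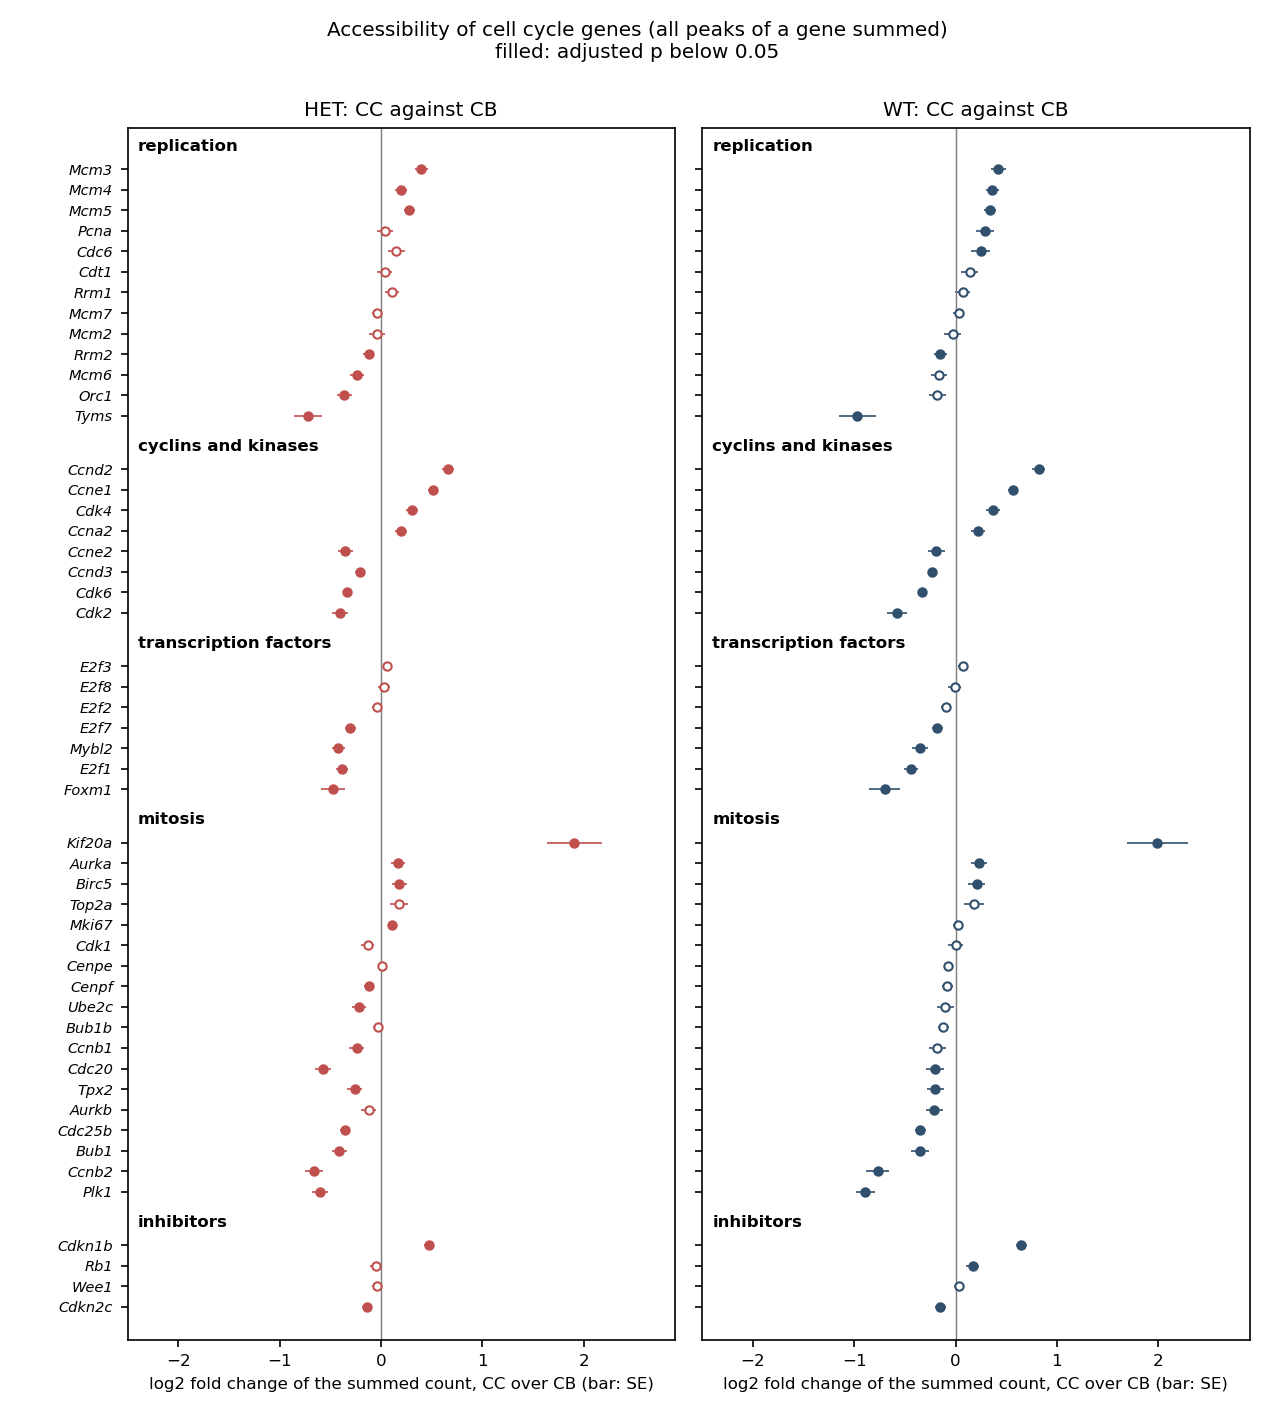
Log2 fold change of the summed count of each of the 50 cell cycle genes, CC over CB, in HET (left) and WT (right), in the order of the 5 roles; bars are standard errors and filled points have an adjusted p below 0.05. The 4 transcription factors that passed all lie left of 0 in both panels, while replication genes and cyclins lie on both sides.

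Other cells and zones moved with the same comparison. Summed CPM at 8 of 10 T cell marker genes (Lck and Cd28 had no peak) was 253 to 343 in HET CC, 343 to 406 in WT CC, 143 to 147 in HET CB and 162 to 163 in WT CB. Of the 8, 7 rose in both genotypes, while Cd4 fell in WT (-0.68) and was not called in HET (-0.15). At 6 of 8 myeloid genes (Lyz2 and S100a8 had no peak) summed CPM was 195 to 235 in HET CC, 213 to 224 in WT CC, 129 to 134 in HET CB and 136 to 144 in WT CB. Of these 6, 4 rose in HET and 5 in WT, while Csf3r fell in both (-0.41 in HET and -0.8 in WT). Of 6 B cell genes, 0 rose and 3 fell in each genotype. All 4 dark zone genes fell in both genotypes, and so did 6 of 7 germinal centre B cell genes. The remaining gene, Bcl6, rose in HET (0.19) and was not called in WT (0.12). The light zone genes split, with 1 of 4 higher and 1 lower in HET and 2 higher and 2 lower in WT. NK cell genes summed to 250 to 258 CPM in HET CC, 258 to 301 in WT CC, 210 to 217 in HET CB and 203 to 216 in WT CB. Of these 7 genes, 5 rose in HET and 4 in WT, and 0 fell. The log2 fold changes in HET and WT were 3.33 and 3.41 for Nkg7, and 2.93 and 2.78 for Klrk1. They were 2.68 and 2.48 for Gzmb, and 3.01 and 2.61 for Klrd1. Klrb1c and Eomes were called in neither, and Ncr1 in HET alone (0.61). The part of these shifts in the values of the cell cycle genes was not tested. In a bulk library, fewer cells of 1 type and less accessible DNA per cell cannot be told apart.

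The replication genes include the helicase subunits Mcm2 to Mcm7, the loading factors Cdc6, Cdt1 and Orc1, the sliding clamp Pcna, and the nucleotide enzymes Rrm1, Rrm2 and Tyms. In HET, 3 of 13 rose and 4 fell, against 33.6% and 28.8% of all genes, with a median log2 fold change of 0.04. In WT, 5 of 13 rose and 2 fell, against 36.2% and 27% of all genes, with a median of 0.07.

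The helicase subunits Mcm3, Mcm4 and Mcm5 rose in both genotypes. Mcm5 had 116, 107, 99.7 and 105 CPM in HET CC against 87.5, 88.1, 88.1 and 87.8 in HET CB (log2 fold change 0.28, SE 0.054, adjusted p 2.52e-05, edgeR). It had 95, 120, 115 and 119 CPM in WT CC against 87.3, 90.2, 87.8 and 89.8 in WT CB (0.34, SE 0.06, adjusted p 5.69e-06). All CC libraries lay above all CB libraries of their genotype. Mcm4 had 89.6, 97.5, 75.7 and 88.2 CPM in HET CC against 74.6, 77, 77.8 and 77.2 in HET CB (0.20, SE 0.058, adjusted p 0.00277), where HET CC replicate 3 lay among the CB libraries. It had 89.8, 105, 97.2 and 91.1 CPM in WT CC against 76, 74.2, 75 and 73.7 in WT CB, without overlap (0.36, SE 0.064, adjusted p 6.9e-06). The gene-end peaks of Mcm4 also lie at the end of Prkdc, a DNA repair kinase, so its rise cannot be placed on either gene.

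Tyms, which makes thymidylate for DNA, moved the other way through its only peak, chr5:30073090-30073590, a gene-end peak inside the gene. It had 6.54, 7.92, 7.17 and 6.21 CPM in HET CC against 11.9, 11.5, 11.8 and 10.9 in HET CB (log2 fold change -0.72, SE 0.14, adjusted p 3.04e-05, edgeR on the gene). It had 6.11, 4.12, 4.79 and 5.47 CPM in WT CC against 8.32, 10.9, 10.8 and 10.2 in WT CB (-0.97, SE 0.18, adjusted p 1.87e-05). No CC library reached a CB library in either genotype.

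Among cyclins and kinases, all 8 passed the test in both genotypes, 4 upward and 4 downward. Of all genes, 33.6% rose and 28.8% fell in HET, and 36.2% rose and 27% fell in WT. Ccnd2, a D-type cyclin that opens G1, rose most in WT. It had 174, 175, 197 and 151 CPM in HET CC against 113, 112, 109 and 106 in HET CB (log2 fold change 0.66, SE 0.057, adjusted p 1.16e-12, edgeR). It had 207, 194, 189 and 160 CPM in WT CC against 107, 106, 106 and 104 in WT CB (0.82, SE 0.061, adjusted p 1.57e-14). The groups did not overlap. Of its 12 peaks, 10 rose and none fell in HET, while 10 rose and 1 fell in WT. The gene-end peak chr6:127152328-127152828 had 48.2, 39.4, 51.3 and 39.3 CPM in HET CC, 40, 43.3, 47.1 and 41.9 in WT CC, 27, 25.4, 26 and 23.7 in HET CB, and 25.8, 25.7, 26.3 and 24.2 in WT CB.

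Ccne1, the cyclin that activates Cdk2 before S phase, had 294, 251, 278 and 246 CPM in HET CC against 185, 187, 191 and 183 in HET CB (log2 fold change 0.51, SE 0.047, adjusted p 3.53e-12, edgeR). It had 281, 318, 277 and 284 CPM in WT CC against 198, 194, 191 and 199 in WT CB (0.57, SE 0.049, adjusted p 7.79e-13). The rise was carried by the promoter and by distant peaks. The gene-end peak chr7:38107387-38107887 rose by 0.51 in HET and 0.71 in WT, and the peak chr7:38084797-38085297, 12937 bp from the gene, rose by 0.70 and 0.86. Cdk4, the partner of D-type cyclins, has 1 peak and rose by 0.31 in HET and 0.37 in WT, and Ccna2, the A-type cyclin of S and G2, rose by 0.20 and 0.22.

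The kinases Cdk6 and Cdk2 fell. Cdk2, the partner of E-type cyclins, has 1 peak, chr10:128704355-128704855, within 1 kb of its start. It had 28.4, 22.8, 27.4 and 26.1 CPM in HET CC against 33.5, 33.8, 34.5 and 35.4 in HET CB (log2 fold change -0.40, SE 0.079, adjusted p 3.93e-05, edgeR). It had 22.8, 21.2, 20.3 and 19.2 CPM in WT CC against 31.7, 31.2, 31.5 and 30.2 in WT CB (-0.58, SE 0.097, adjusted p 2.55e-06). The groups were apart in both genotypes, so the cyclin Ccne1 and its kinase partner moved in opposite directions.

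Cdk6, another partner of D-type cyclins, has 33 peaks spread over a long gene. It had 339, 333, 337 and 384 CPM in HET CC against 436, 427, 453 and 431 in HET CB, and 350, 328, 333 and 362 in WT CC against 423, 443, 418 and 445 in WT CB. The log2 fold change was -0.33 in both genotypes (SE 0.042 in HET and 0.044 in WT). In HET, 20 of the 33 peaks fell and 3 rose, and in WT 17 fell and 3 rose. The gene-end peak chr5:3340969-3341469 fell in HET (-0.49, adjusted p 9.9e-05, edgeR) and was not called in WT (-0.03, adjusted p 0.875). Ccnd3, the D-type cyclin that germinal centre B cells depend on, lost signal over its body while a gene-end peak gained. Of its 17 peaks, 2 rose and 9 fell in HET, and 3 rose and 9 fell in WT, and the gene-end peak chr17:47504773-47505273 rose by 0.42 in HET and 0.56 in WT.

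**Figure D2:**
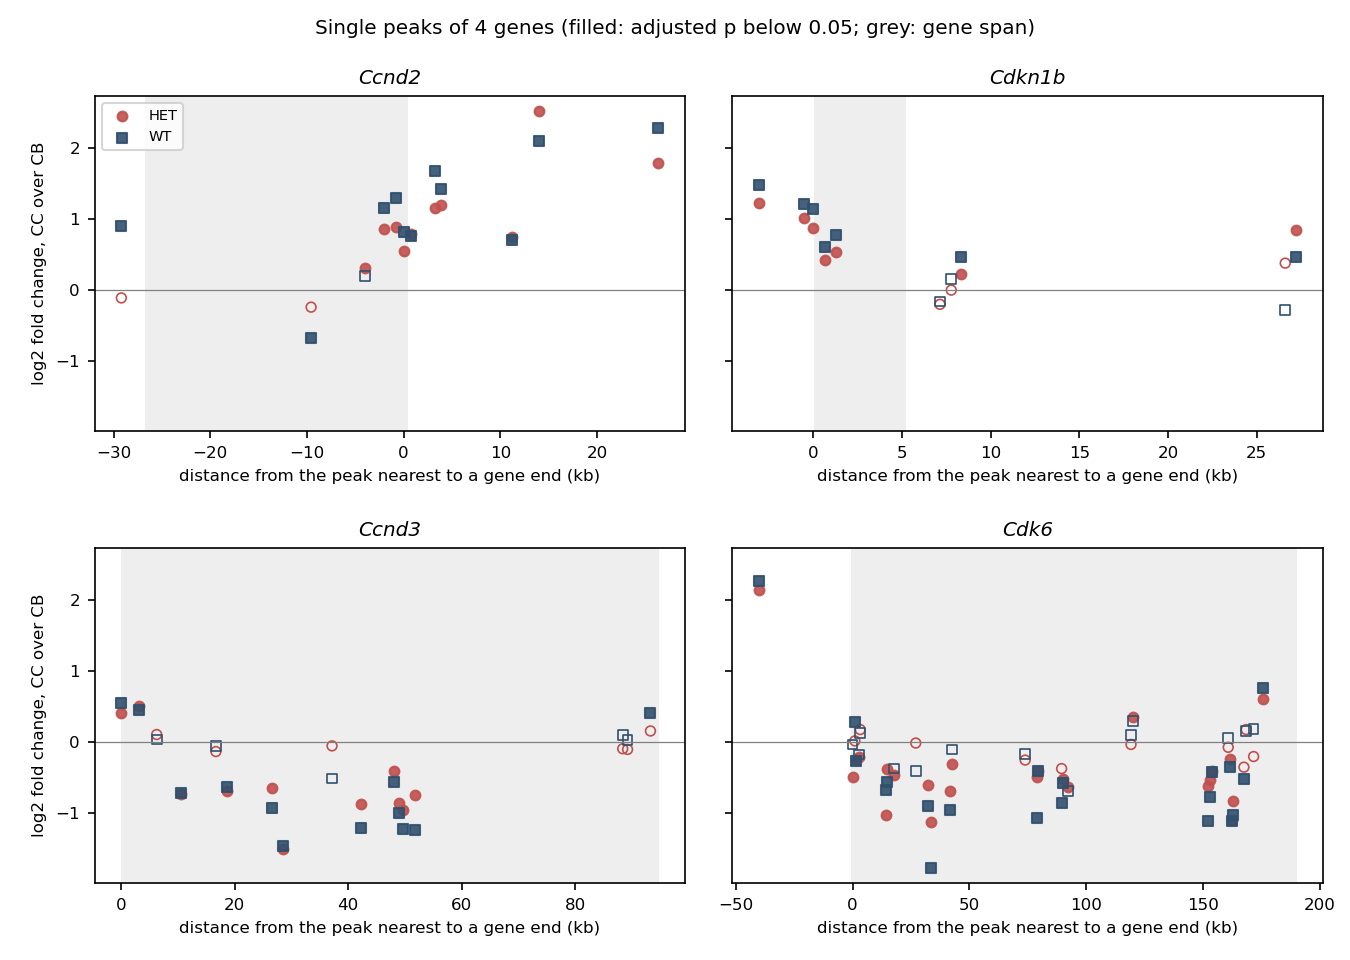
Log2 fold change of each peak, CC over CB, against the distance in kb from the peak nearest to a gene end, for Ccnd2, Cdkn1b, Ccnd3 and Cdk6; circles are HET, squares are WT, filled symbols have an adjusted p below 0.05 and grey is the gene span. Ccnd2 and Cdkn1b peaks lie mostly above 0 near a gene end, and the peaks over the bodies of Ccnd3 and Cdk6 lie mostly below 0.

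The transcription factors E2f1, E2f7, Foxm1 and Mybl2 fell in both genotypes and none of the 7 rose, with a median log2 fold change of -0.30 in HET and -0.18 in WT. Of all genes, 28.8% fell and 33.6% rose in HET, and 27% fell and 36.2% rose in WT. E2f1, an activator of S phase genes, had 73.1, 82.2, 77 and 94.4 CPM in HET CC against 108, 108, 107 and 104 in HET CB (-0.38, SE 0.059, adjusted p 5.67e-07, edgeR). It had 74.2, 84.5, 78.4 and 68.7 CPM in WT CC against 105, 106, 102 and 100 in WT CB (-0.44, SE 0.066, adjusted p 3.73e-07), and no CC library reached a CB library. Its gene-end peak chr2:154568917-154569417 fell by 0.52 in HET and 0.76 in WT, and the peak chr2:154574144-154574644, 4502 bp upstream, fell by 0.80 and 0.82.

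Mybl2, which encodes B-Myb, had 48.8, 55.1, 45.3 and 59.6 CPM in HET CC against 68.4, 72.9, 69.1 and 70.3 in HET CB (log2 fold change -0.42, SE 0.067, adjusted p 1.2e-06, edgeR). It had 44.2, 57.7, 50.5 and 52 CPM in WT CC against 65.8, 65.2, 65 and 64.3 in WT CB (-0.35, SE 0.077, adjusted p 0.00014), again without overlap. Its promoter peak chr2:163054266-163054766 fell in HET (-0.32) and was not called in WT (-0.17, adjusted p 0.0908), and the neighbouring peak chr2:163055158-163055658 inside the gene fell by 0.77 in HET and 0.92 in WT. Foxm1, a factor of G2 and mitosis genes, fell by 0.47 in HET and 0.70 in WT through 1 peak shared with the end of Rhno1, and 1 WT CC library, with 22 CPM, lay among the WT CB values of 20.5 to 28.3. E2f7, an E2F repressor, fell by 0.30 in HET and 0.18 in WT, and in WT the call was lost with thinned counts (-0.12, adjusted p 0.125) and with peaks within 10 kb (-0.12, adjusted p 0.119).

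Of 18 mitosis genes, 4 rose and 9 fell in HET and 3 rose and 7 fell in WT, with medians of -0.13 and -0.11. The shares of all genes were 33.6% higher and 28.8% lower in HET, and 36.2% higher and 27% lower in WT. The kinase Plk1 fell in both genotypes, and no CC library reached a CB library of its genotype. It had 37.7, 38.7, 27.9 and 37.7 CPM in HET CC against 52.4, 54.7, 55 and 55 in HET CB (log2 fold change -0.60, SE 0.077, adjusted p 1.48e-08, edgeR). It had 22.8, 27.1, 33.3 and 27.1 CPM in WT CC against 50.5, 49.7, 51.6 and 52.5 in WT CB (-0.89, SE 0.095, adjusted p 1.58e-10). Its 2 peaks fell alike in WT. The promoter peak chr7:122158886-122159386, which overlaps the printed window, fell by 0.63 in HET and 0.90 in WT.

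Ccnb2 had 22.5, 23.1, 22.3 and 25.5 CPM in HET CC against 37.6, 37.8, 35.9 and 36 in HET CB (log2 fold change -0.66, SE 0.092, adjusted p 1.07e-07, edgeR). It had 20.6, 14.1, 17.2 and 27.4 CPM in WT CC against 34.8, 32.2, 34.2 and 34.9 in WT CB (-0.77, SE 0.11, adjusted p 1.67e-07), with WT CC replicate 4 nearest to WT CB but still below it. Its promoter peak chr9:70421340-70421840 fell by 0.75 in HET and 0.87 in WT. Cdc20 fell by 0.57 in HET (adjusted p 7.93e-08) and by 0.20 in WT (adjusted p 0.0486). Cdc25b, the phosphatase that activates Cdk1, fell by 0.35 in both genotypes through peaks inside the gene: its promoter peak was not called (-0.10 in HET, adjusted p 0.213, and -0.12 in WT, adjusted p 0.183). Bub1, a spindle checkpoint kinase, fell by 0.41 in HET and 0.35 in WT.

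Cdk1 itself did not pass as a summed gene in either genotype, although 1 of its 5 peaks rose and 1 fell in each. It had 53.8, 60.7, 54.2 and 63.3 CPM in HET CC, 55.9, 63, 67.9 and 58.8 in WT CC, 62, 65.4, 62.5 and 64.4 in HET CB, and 63.4, 60.5, 62.5 and 59.2 in WT CB, all in 1 range. Kif20a, a kinesin of cytokinesis, had the largest fold among the 50 genes (1.91 in HET and 1.99 in WT), from 1 weak peak inside the gene. That peak had 3.1, 2.9, 3.96 and 3.88 CPM in HET CC, 5.28, 5, 2.82 and 3.83 in WT CC, 0.973, 0.843, 0.927 and 0.914 in HET CB, and 1.11, 0.784, 1.02 and 1.3 in WT CB. Aurka, a spindle kinase, and Birc5, a subunit of the chromosomal passenger complex, rose by 0.17 and 0.18 in HET and by 0.23 and 0.21 in WT.

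Among the inhibitors, Cdkn1b rose. It had 292, 247, 322 and 275 CPM in HET CC against 203, 205, 200 and 209 in HET CB (log2 fold change 0.47, SE 0.049, adjusted p 1.01e-10, edgeR). It had 296, 285, 316 and 307 CPM in WT CC against 191, 196, 190 and 193 in WT CB (0.65, SE 0.051, adjusted p 9.51e-14), and the groups were far apart. In each genotype 7 of its 10 peaks rose and none fell. The promoter peak chr6:134920083-134920583, over the printed window, had 76.4, 67.7, 101 and 70.6 CPM in HET CC against 40.7, 44.7, 43.3 and 42.9 in HET CB (0.87, SE 0.075). It had 79.2, 92.4, 78.1 and 102 CPM in WT CC against 37.8, 42.3, 40.7 and 39.3 in WT CB (1.14, SE 0.082).

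The other inhibitors moved little as summed genes. Cdkn2c, which encodes the INK4 inhibitor p18, fell by 0.14 in HET and 0.15 in WT with overlapping libraries. Its call was lost with thinned counts in both genotypes, without HET CC replicate 3 (adjusted p 0.0927), and without WT CB replicate 2 (0.0581), WT CC replicate 2 (0.107) or WT CC replicate 4 (0.0931). Rb1, the retinoblastoma protein that holds E2F factors, rose in WT (0.17, adjusted p 0.0183) and was not called in HET (-0.05, adjusted p 0.462). The WT call of Rb1 was lost under 3 other scalings (adjusted p 0.0657 to 0.116), with peaks within 10 kb (0.289), and without WT CC replicate 2 (0.0587) or replicate 4 (0.282). Wee1, a kinase that holds Cdk1 inactive, was not called as a gene, while 3 of its 12 peaks rose and 6 fell in HET and 4 rose and 6 fell in WT.

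**Figure D3:**
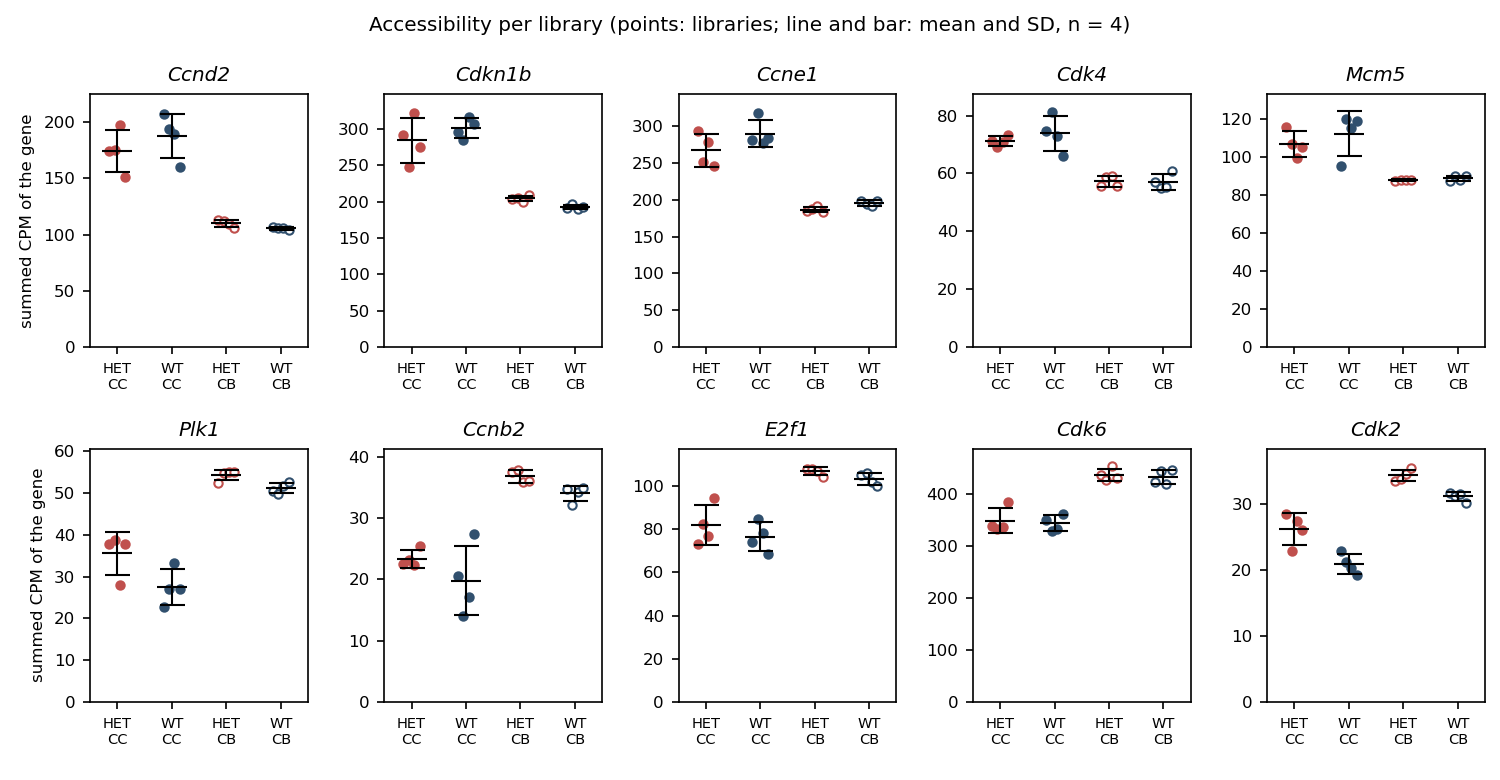
Summed CPM per library for 10 cell cycle genes in HET CC, WT CC, HET CB and WT CB; each point is a library, and the line and bar are the mean and SD of 4 libraries. Filled points are CC: they lie above the open CB points of their genotype for the genes of the top row and below them for those of the bottom row.

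Replication and mitotic genes were then set against each other. Of 18 mitosis genes, 9 fell in HET and 7 in WT, and of 13 replication genes, 4 fell in HET and 2 in WT, against 28.8% of all genes in HET and 27% in WT. The medians were -0.13 and -0.11 for mitosis genes and 0.04 and 0.07 for replication genes. No test was run over these lists, which were chosen with earlier results known. Other genes of the same roles did not repeat the pattern. On a wider cell cycle list, which holds none of the 53 genes and of which 120 of 124 had a peak, 16 of 52 mitosis genes rose and 15 fell in HET, and 20 rose and 13 fell in WT. There, 7 of 41 replication genes rose and 18 fell in HET, and 8 rose and 14 fell in WT. By these counts more of the replication genes fell than of the mitosis genes on the wider list, the reverse of the order among the 53.

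Genes of that list with the smallest p in each role included several with large and separate groups. Rfc1, a subunit of the clamp loader, had 98.6, 113, 99.5 and 104 CPM in HET CC against 155, 155, 157 and 153 in HET CB, and 103, 101, 104 and 87.6 in WT CC against 161, 158, 155 and 160 in WT CB. Clspn, an adaptor of the replication checkpoint, fell by 0.75 in HET and 0.97 in WT, and Orc4, an origin recognition subunit, rose by 0.49 and 0.68. Smc2, a condensin subunit, had 85.1, 68.5, 79.3 and 71.1 CPM in HET CC against 45.5, 45, 44.4 and 45.8 in HET CB, and 75.3, 78.3, 78.1 and 86.7 in WT CC against 49.8, 46.3, 50.3 and 51.1 in WT CB. Fbxo5, an inhibitor of the anaphase-promoting complex, rose by 0.50 in HET and 0.61 in WT, and Cdca2, a mitotic chromatin protein, by 0.47 and 0.64. Lin9, a MuvB subunit, fell by 0.50 in HET and 0.66 in WT. Among inhibitors, Cdkn2a fell by 0.79 in HET and 0.76 in WT, Cdkn2d rose by 0.49 and 0.56, and Fzr1, an activator of the anaphase-promoting complex, rose by 0.52 and 0.49. The remaining named genes were Cdk7 (-0.34 in HET and -0.29 in WT), Myb (-0.33 and -0.36) and E2f5 (0.38 and 0.53), which passed in both, and Cks1b (-0.03 and 0.21) and Cdc25a (-0.04 and -0.12, adjusted p 0.0358 in WT), which were called in WT and not in HET.

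At the level of single peaks, 67 of 282 rose and 102 fell in HET, against 30.8% and 28.1% of all 82188 peaks. In WT, 65 rose and 88 fell, against 30.2% and 27.7%. In both genotypes 56 peaks rose and 75 fell, and no peak rose in 1 and fell in the other. No share of all peaks called in both genotypes, or in opposite directions, is given here. The agreement was therefore not judged against all peaks. Of the 41 genes with at least 2 peaks, 16 had both a higher and a lower peak in HET and 17 in WT, against 32.6% and 31.9% of 11902 such genes in all.

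Gene-end peaks were compared with other peaks. In HET, 21 of 75 gene-end peaks rose and 32 fell, against 28.7% and 28.4% of all gene-end peaks. In WT, 21 rose and 21 fell, against 32.7% and 23.7%. Other peaks split 46 higher and 70 lower of 207 in HET, against 29.1% and 28.8% of all such peaks, and 44 higher and 67 lower in WT, against 27.5% and 29.5%. Of the other peaks that fell, 44 of 70 in HET and 43 of 67 in WT lay inside genes. Most such peaks of all genes did so too, with 11637 of 16555 in HET and 11816 of 16957 in WT. Of 108 peaks inside the gene span, 18 rose and 44 fell in HET and 13 rose and 43 fell in WT, and of 99 outside it, 28 rose and 26 fell in HET and 31 rose and 24 fell in WT. Over all genes, 28.2% of inside peaks rose and 30.9% fell in HET, and 27.1% rose and 31.4% fell in WT. Of all outside peaks, 30.8% rose and 24.9% fell in HET, and 28.4% rose and 26.1% fell in WT.

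The roles were then taken apart at gene ends. Of 28 gene-end peaks of mitosis genes, 5 rose and 15 fell in HET (median log2 fold change -0.21) and 4 rose and 13 fell in WT (-0.13). Of 16 gene-end peaks of replication genes, 4 rose and 3 fell in HET (0.04) and 5 rose and 1 fell in WT (0.02). Of all gene-end peaks, 28.7% rose and 28.4% fell in HET, and 32.7% rose and 23.7% fell in WT. Gene-end peaks of cyclins and kinases had medians of 0.29 in HET and 0.32 in WT, those of inhibitors 0.22 and 0.34, and those of transcription factors -0.30 and -0.17. Among 12 mitosis promoters with CHR letters and a gene-end peak, 2 rose and 7 fell in HET and 1 rose and 4 fell in WT. Of 1070 windows of all genes with CHR letters and a gene-end peak, 38.4% rose and 20.6% fell in HET, and 45% rose and 15.8% fell in WT. Among 6 replication promoters with E2F letters and a gene-end peak, 2 rose and 1 fell in HET and 2 rose and 0 fell in WT. Of 353 windows of all genes with E2F letters and a gene-end peak, 36.3% rose and 20.1% fell in HET, and 43.1% rose and 13.3% fell in WT.

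**Figure D4:**
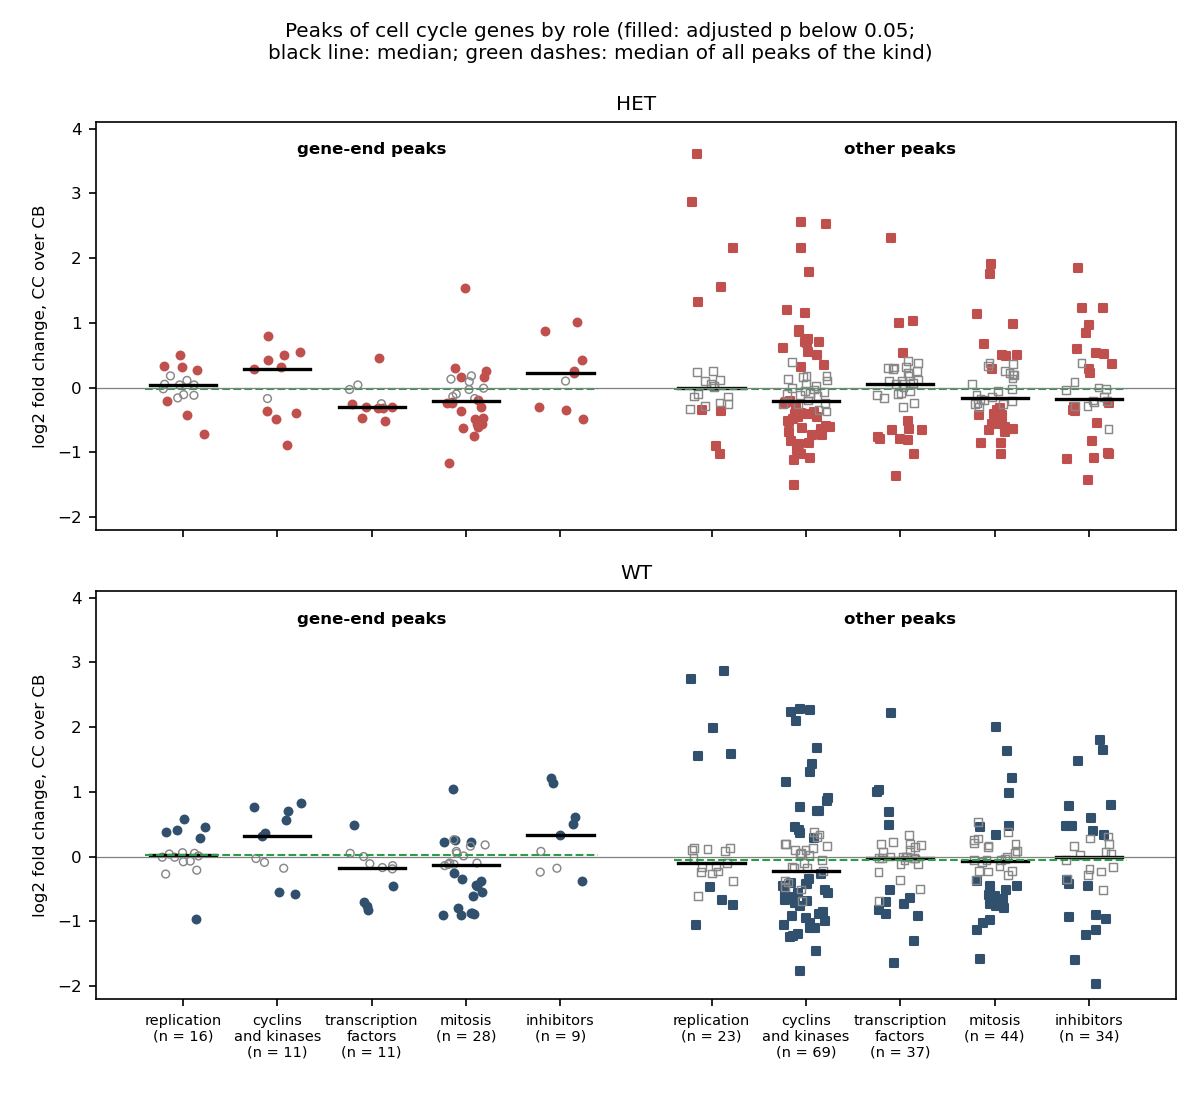
Log2 fold change of each of the 282 peaks, CC over CB, in HET (top) and WT (bottom), for 75 gene-end peaks (left, circles) and 207 other peaks (right, squares) by role; filled symbols have an adjusted p below 0.05, black lines are medians and green dashes the median of all peaks of that kind. At gene ends, mitosis and transcription factor medians lie below 0, and those of cyclins and kinases and of inhibitors lie above it.

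Libraries differed in the share of counts at gene ends over the whole table. Gene-end peaks took 46.05% to 46.72% of assigned counts in HET CC, 46.91% to 47.63% in WT CC, 43.54% to 44.21% in HET CB and 43.2% to 43.64% in WT CB. For the cell cycle genes the same share was 50.29% to 51.51% in HET CC, 50.15% to 52.3% in WT CC, 49.19% to 49.74% in HET CB and 48.55% to 49.09% in WT CB. For cyclins and kinases the CC groups lay above the CB groups, with 30.34% to 32.85% in HET CC, 31.68% to 33.05% in WT CC, 27.73% to 28.27% in HET CB and 27.26% to 27.47% in WT CB. For mitosis genes the 4 groups overlapped, between 54.83% and 58.03%.

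The difference between gene-end and other peaks was tested within each gene, as the log2 ratio of their summed CPM (limma, with 1 library weight per group). Of 35 testable genes, 13 had a higher and 8 a lower ratio in HET CC than in HET CB, against 28.7% and 18.9% of 8213 genes. In WT, 12 were higher and 6 lower, against 31.3% and 13.7%. With equal library weights 10 were higher and 7 lower in HET, and 13 higher and 7 lower in WT. No share of all genes is given here for equal weights. Among 8 replication genes, 2 were higher and 3 lower in HET and 1 higher and 2 lower in WT. Among 11 mitosis genes, 5 were higher and 2 lower in HET and 4 higher and 3 lower in WT.

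Mcm5 had log2 ratios of 2.57, 2.48, 2.53 and 2.31 in HET CC against 2.01, 1.87, 2.02 and 1.80 in HET CB (difference 0.55, SE 0.1, adjusted p 0.000169, limma). The ratios were 2.94, 2.59, 2.86 and 2.75 in WT CC against 1.89, 2.01, 1.93 and 1.95 in WT CB (0.84, SE 0.13, adjusted p 1.63e-05), so the groups were apart in both genotypes. Cdkn1b was shifted to its gene ends by 0.49 in HET and 0.61 in WT, and Ccnd3 by 0.67 and 0.84. Tpx2, a spindle assembly factor that fell as a summed gene, had a ratio higher by 0.68 in HET (adjusted p 0.0127) and 1.41 in WT (adjusted p 0.000193). Its gene-end signal did not rise, with means of 36.2 CPM in HET CC, 41.5 in HET CB, 35.6 in WT CC and 38.8 in WT CB. Its other peak was weak, with 2.22, 0, 0.846 and 1.64 CPM in WT CC against 3.49, 3.61, 3.33 and 3.91 in WT CB. At such levels the size of the ratio depends on the pseudocount of 0.5 CPM. The HET call of Tpx2 was lost with equal library weights (adjusted p 0.0856) and without HET CC replicate 4 (0.0513).

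Mcm3 went the other way, although its promoter peak, chr1:20820134-20820634, rose by 0.27 in HET and 0.38 in WT. Its log2 ratio was 2.54, 3.29, 2.35 and 3.74 in HET CC against 5.17, 5.57, 5.21 and 5.05 in HET CB (difference -2.27, SE 0.29, adjusted p 5.97e-06, limma), and 3.01, 2.32, 2.99 and 2.74 in WT CC against 5.08, 4.94, 5.22 and 4.42 in WT CB (-2.15, SE 0.36, adjusted p 0.000105). The weak peak chr1:20824932-20825432, 4870 bp upstream, had 6.36, 2.77, 5.47 and 1.86 CPM in HET CC, 5, 5, 3.95 and 5.47 in WT CC, 0.486, 0.421, 0.706 and 0.583 in HET CB, and 0.502, 0.847, 0.533 and 0.804 in WT CB. With gene ends taken within 500 bp in place of 1 kb, the calls were lost for Mcm5 (adjusted p 0.693 in HET and 0.258 in WT) and for Mcm3 in WT (0.362). With thinned counts the Mcm5 call in HET was lost (0.202). At the 1 kb limit Cdk1 also had a lower ratio in CC, by 0.68 in HET (adjusted p 0.000797, limma) and 0.81 in WT (adjusted p 0.00122). Its mean gene-end CPM was 44.4 in HET CC against 53.5 in HET CB, and 45.4 in WT CC against 51.3 in WT CB. Its other peaks had means of 13.6 CPM in HET CC against 10.1 in HET CB, and 16 in WT CC against 10.1 in WT CB.

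A narrower split, chosen after the data were seen, set peaks within 250 bp of a gene end, which contain it, against the flanking gene-end peaks. Of 40 such peaks, 13 rose and 15 fell in HET and 12 rose and 7 fell in WT, and of 35 flanking peaks, 8 rose and 17 fell in HET and 9 rose and 14 fell in WT. Over all genes, 37% of peaks over a gene end rose and 21.8% fell in HET, and 42.9% rose and 16.9% fell in WT. Of all flanking peaks, 20.8% rose and 34.6% fell in HET, and 23.1% rose and 30.2% fell in WT. Within genes, the ratio of the 2 kinds rose in 12 of 22 genes and fell in 2 in HET, against 45.6% and 6.19% of 4359 genes (limma). It rose in 12 and fell in 1 in WT, against 41.6% and 4.52%. With equal library weights 11 rose and 2 fell in HET and 14 rose and 1 fell in WT, again without a share of all genes under those weights. E2f3, an E2F activator with no call as a gene, had log2 ratios of 1.69, 1.83, 2.34 and 1.75 in HET CC against 1.22, 1.11, 1.19 and 1.16 in HET CB, and 2.06, 2.42, 1.83 and 2.29 in WT CC against 1.18, 1.32, 1.13 and 1.18 in WT CB (difference 0.73 in HET and 0.95 in WT). Bub1b, a spindle checkpoint protein, was the gene that fell in both, by 1.74 in HET and 1.21 in WT. Mki67, a protein of the surface of mitotic chromosomes, rose in this ratio, by 0.55 in HET and 0.68 in WT, while its ratio of all gene-end peaks to other peaks fell by 0.45 and 0.49. E2f3, Bub1b and Mki67 were singled out after their values were seen.

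**Figure D5:**
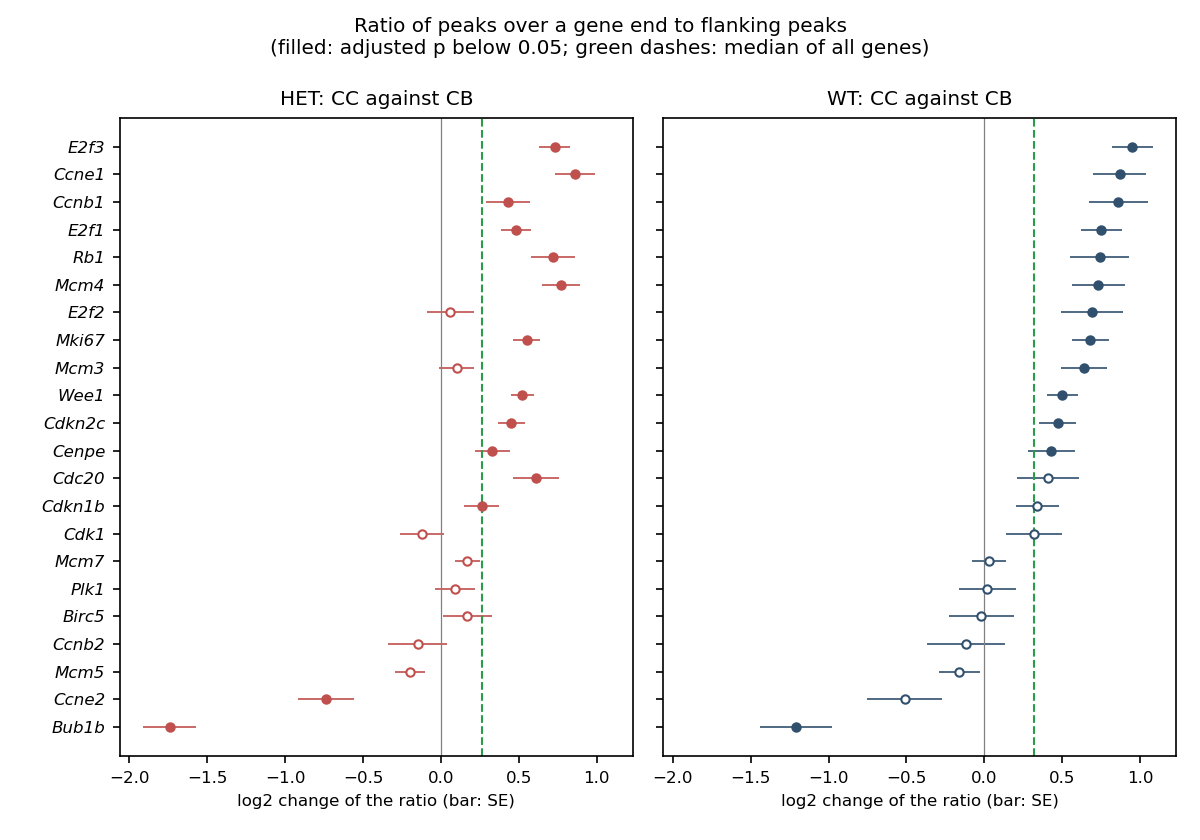
Difference between CC and CB in the log2 ratio of peaks over a gene end to flanking gene-end peaks, for 22 cell cycle genes in HET (left) and WT (right); bars are standard errors, filled points have an adjusted p below 0.05 and the green dashes are the median of all genes. Most filled points lie right of 0, as does the median of all genes, and Bub1b lies far to the left in both panels.

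The second comparison set HET against WT within each cell type, which asks whether cell cycle loci were more or less open with 1 intact Smarca4 copy. In CB, none of the 50 genes and none of the 282 peaks was called, against 0.438% of all genes and 0.129% of all peaks (edgeR). At an unadjusted p below 0.05 there were 5 genes and 14 peaks, and DESeq2 also called none. A fit of the 2 CB groups alone called 4 genes, among them Cdc20 (adjusted p 0.0371), Ube2c (0.0468) and Cdkn1b (0.0423), and 5 peaks. For the unadjusted counts, DESeq2 and this fit, no share over all genes or peaks is given here. The estimates were small: they ran from -0.21 to 0.20 and 37 of 50 were positive, with a median of 0.04 against 0.01 over all genes. The libraries of the 2 genotypes did not overlap for 10 genes, all higher in HET CB, against 12.1% of all genes in either direction. No share of all genes higher without overlap, or with a positive estimate, is given beside these counts. Their direction was therefore not judged against all genes. Cdc20 had 44.2, 49.8, 45.8 and 48.4 CPM in HET CB against 42.4, 40.2, 43.3 and 41.3 in WT CB, just apart (log2 fold change 0.17, SE 0.063, adjusted p 0.299). Cdk2 had 33.5, 33.8, 34.5 and 35.4 CPM in HET CB against 31.7, 31.2, 31.5 and 30.2 in WT CB, also apart (0.14, SE 0.063, adjusted p 0.445). The others named by rule ran from -0.07 for Ccne1 to 0.20 for Tyms, with Orc1, Mybl2, E2f7, Ube2c, Cdkn1b and Rb1 between them.

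In CC, 1 gene and no peak was called between the genotypes, against 7.15% of all genes and 2.06% of all peaks. At an unadjusted p below 0.05 there were 5 genes and 32 peaks, and DESeq2 called 2 genes and 8 peaks. These unadjusted and DESeq2 counts have no share over all genes or peaks beside them. The 1 gene called by edgeR was Plk1, higher in HET CC (37.7, 38.7, 27.9 and 37.7 CPM) than in WT CC (22.8, 27.1, 33.3 and 27.1 CPM), with a log2 fold change of 0.38 (SE 0.11, adjusted p 0.0281, edgeR). Its libraries overlapped. The call was lost without HET CC replicate 2 (adjusted p 0.107) or 4 (0.0885), without WT CC replicate 1 (0.117), 2 (0.0695) or 4 (0.0618), and in a fit of only the 2 groups (0.138). Cdk2 had 28.4, 22.8, 27.4 and 26.1 CPM in HET CC against 22.8, 21.2, 20.3 and 19.2 in WT CC (0.32, SE 0.11, adjusted p 0.0717), and passed with total counts (0.0454), with gene-end TMM factors (0.046) and with DESeq2 (0.0416). Tyms was at 0.44 (adjusted p 0.219), Ccne1 at -0.12 (0.148), Pcna at -0.17 (0.313), Foxm1 at 0.27 (0.376), E2f1 at 0.10 (0.438), Cenpe at 0.09 (0.249), Rb1 at -0.15 (0.199) and Cdkn1b at -0.09 (0.327). Ccne1 passed without HET CC replicate 1 (-0.17, adjusted p 0.0294) and Cdkn1b without HET CC replicate 3 (-0.15, 0.0452).

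The genotype effect in CC was then compared with that in CB by the interaction term. None of the 50 genes and none of the 282 peaks was called, against 0.312% of all genes and 0.159% of all peaks (edgeR), with 5 genes and 26 peaks at an unadjusted p below 0.05, and DESeq2 called 1 gene and 4 peaks. No share over all genes or peaks is given here for the unadjusted, DESeq2 or equal-weight counts. Cdc20 had the smallest p, with an interaction of -0.37 (SE 0.12, adjusted p 0.156), and passed with DESeq2 (0.0346) and without HET CC replicate 1 (0.0378). Plk1 followed in mitosis with 0.29 (SE 0.13, adjusted p 0.284), and among inhibitors Rb1 with -0.22 (0.227) and Cdkn1b with -0.17 (0.25), the last of which passed without HET CC replicate 3 (0.0401). The interaction for Pcna was -0.25 (0.352), for Mcm4 -0.16 (0.428), for Ccnd2 -0.16 (0.385), for Ccne2 -0.16 (0.549), for E2f7 -0.12 (0.495) and for Foxm1 0.23 (0.654). The gene-end to other ratio was called for none of the 35 genes in CB, in CC or in the interaction, against 0.56%, 0% and 0% of all 8213 genes (limma). At an unadjusted p below 0.05 there were 4 genes in CB, 3 in CC and 2 in the interaction, and equal library weights also called none. In the narrower split Bub1b was called in CB, with log2 ratios of 3, 3.07, 3.32 and 3.13 in HET CB against 2.62, 2.7, 2.73 and 2.56 in WT CB (difference 0.48, SE 0.096, adjusted p 0.045), against 0.138% of 4359 genes. The groups did not overlap, but the call was lost with thinned counts, with equal library weights, without HET CB replicate 2, 3 or 4, without any 1 of the WT CB replicates and without WT CC replicate 1. Equal weights were too strict for HET against WT in CB in simulated counts of the gene-end to other ratio. The narrower split was not simulated, so that result does not bear on the Bub1b call. No other of the 22 genes of that split was called in CB, and none was called in CC or in the interaction, where 3 and 2 genes were at an unadjusted p below 0.05. With equal library weights 1 gene was called in CC, lower in HET CC, and none in the interaction.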

How the data were processed

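Omni-ATAC libraries were measured in 16 samples, 4 in each of 4 groups. The deposited table holds counts: whole-number reads per peak that the authors did not normalize, for peaks of 501 bp. FastQC, BWA, deepTools, R 4.2.1 and the mm10 build are named in the submitters' processing notes. The peak caller and the counting tool are not given in the sources used here.

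Gene spans came from RefSeq. The 53 genes, their roles, the wider list and the marker lists were chosen with earlier results of these data known. Counts were tested as deposited, per peak and summed per gene, with edgeR 4.0.16 (quasi-likelihood test, TMM scaling, 1 coefficient per group, all 16 libraries) in R 4.3.3. filterByExpr removed 0 peaks and 0 genes. A call is an adjusted p below 0.05 (Benjamini-Hochberg over all peaks or genes). CPM used TMM-scaled library sizes.

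The log2 ratio of gene-end to other CPM, with a pseudocount of 0.5 CPM, was tested with limma 3.58.1 for genes with at least 20 counts of each kind on average. It understates changes of low genes. In simulated counts, equal library weights gave unchanged genes small p-values too often for HET against WT in CC and for CC against CB in WT, and too seldom for HET against WT in CB and CC against CB in HET. So 1 weight per group was added after the data were seen, between 0.28 in WT CC and 3.2 in HET CB. That departs from the planned test, whose counts are given as an alternative. The narrower split of gene-end peaks and the TMM factors of gene sums were also added after the data were seen.

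Genes named in the text were up to 4 per role with the smallest p of CC against CB in WT, each with its gene-end and its other peak of smallest p. Up to 5 were named for the ratio, up to 2 per role for each genotype comparison and the interaction, and up to 3 per role of the wider list. Genes and peaks named beyond this rule, among them Cdk4, Ccna2, Ccnd3, Cdc20, Bub1, Cdk1, Aurka and Birc5, were chosen after their values were seen.

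The labels do not say whether CC and CB of 1 replicate number came from 1 mouse. The number was therefore not used as a block in the reported tests. Correlations of same-numbered deviations in CC and CB were at most 0.073. They cannot show that the libraries were unpaired, because single peaks hold few counts in CC. Alternatives were other scalings, count filters, DESeq2 1.42.0, thinned counts, only the groups compared, a replicate block, each library left out, other distances and other pseudocounts.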

Additional observations from a re-analysis of the deposited data

Results flagged for a closer look

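In each group of 4 libraries, a value was listed when its gap to the nearest other library was too large a share of the whole range of the group by Dixon's 95% limit for 4 values. Chance gives about 1 in 20 groups, and 11 of the 248 groups checked were listed, so the number is near that share.

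Among summed genes, Orc1 had 38.9 CPM in WT CC replicate 1, Ccne1 318 CPM in WT CC replicate 2, Cdk6 384 CPM in HET CC replicate 4 and Ccne2 75.9 CPM in WT CC replicate 1. Foxm1, which has 1 peak, had 25.7 CPM in HET CB replicate 1 both as a gene and as that peak. Plk1 had 27.9 CPM in HET CC replicate 3, the lowest of its group and the value nearest to WT CC, and 52.4 CPM in HET CB replicate 1.

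Among peaks, the promoter peak of Plk1 had 13.6 CPM in WT CC replicate 1, and the promoter peak of Ccnb2 had 13.6 CPM in HET CC replicate 3. A peak of Ccnb2 inside the gene had 4.79 CPM in WT CC replicate 3. The fall of that peak in WT (log2 fold change -0.59, adjusted p 0.037, edgeR) was lost without WT CB replicate 3 (0.0503) or 4 (0.0506), and without WT CC replicate 1 (0.106), 2 (0.112) or 4 (0.109).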

How the results depend on the processing

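Libraries of CC are shallower than those of CB, which limits every comparison in CC. With at least 20 counts in every library, 99 peaks were called in WT and 110 in HET between CC and CB, since fewer peaks were tested. For peaks between HET and WT in CB, a fit of only these groups called 5. For peaks between HET and WT in CC, total counts called 3, TMM from gene-end peaks 1, at least 20 counts 2, DESeq2 8, thinned counts 1, and leaving out 1 library 0 to 6. For genes, the fit of only the CB groups called 4 in CB. In CC, total counts, gene-end TMM and DESeq2 each called 2 genes, the fit of only the CC groups 0, and leaving out 1 library 0 to 2. For the interaction, DESeq2 called 4 peaks and 1 gene, and leaving out 1 library 0 to 1 of each. The narrower split gave 0 genes in CB with thinned counts, equal weights or the replicate block, 0 to 1 without 1 library, and 1 in CC with equal weights. Counts in this section cover cell cycle genes and their peaks alone, without the share over all genes or peaks under the same setting.

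The median log2 fold change of mitosis genes in WT was -0.17 with gene-end TMM or gene-sum TMM and -0.18 with peaks within 10 kb, and in HET -0.19 within 10 kb. That of cyclins and kinases in HET was -0.06 with thinned counts, and that of transcription factors in HET was -0.19 within 10 kb and -0.17 without peaks at another gene's end.

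Signs turned for uncalled values only. Orc1 between genotypes in CB was -0.19 without peaks at another gene's end. Wee1 in WT was -0.01 with total counts and -0.03 with gene-end or gene-sum TMM, and 0.08 in HET within 10 kb. An Mcm5 peak in HET was 0.05 with thinned counts. The Cdk6 gene-end peak in WT was 0.06 with thinned counts, 0.02 without WT CB replicate 4 and 0.10 without WT CC replicate 3, and it ran from -0.16 to 0.10 over the 16 fits that each left out 1 library. The causes were not tested.

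Same-numbered libraries of CC and CB had correlations of 0.041 to 0.045 in WT and 0.032 to 0.073 in HET. These low values do not decide whether the libraries were paired. Each CC library still correlated best with the CB library of its own number for 4 of 4 pairs in WT and 2 of 4 in HET, a hint from the data and not from the labels. With the replicate number as a block, 62 peaks were higher and 92 lower in HET, and 62 and 83 in WT. For genes it gave 11 and 21 in HET, and 14 and 17 in WT.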
